A study of Homo sapiens with 4 samples.

Results

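Genome-wide binding of WT and K120R p53 was compared in Tet-treated H1299 cells, over every peak called in each library and not only at known response elements (REs). All 4326 peaks of the WT library and all 2023 peaks of the K120R library were taken, which together made 6349 of the 6849 peaks of the series. H1299 is a human lung cancer line that lacks endogenous p53. The cells expressed the Tet repressor and carried, by lentiviral infection, WT p53 or a form in which arginine replaces the lysine at position 120 (K120R), and both forms were switched on by tetracycline (Tet) for 24 h, at a dose of 1 that the labels give per µl and the methods per ml. Chromatin bound by p53 was pulled down with the FL393 antibody and sequenced (ChIP-seq), with 1 library for each of WT Tet-treated, K120R Tet-treated, WT untreated and K120R untreated cells. The untreated libraries, with 488 and 12 peaks, served as background only.

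p53 is a transcription factor that binds as a tetramer to REs built from a repeated decamer, each with a CATG-like core between purines and pyrimidines. It activates genes for cell cycle arrest, DNA repair, cell death, metabolism and its own control. Lysine 120 lies in the DNA-binding domain and reaches the bases of the RE, and acetylation of this residue has been linked to the choice of target genes.

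The Tet-treated WT library held 33531162 ChIP tags and the Tet-treated K120R library 34857204. The authors called the peaks of each library against its own input, and their software worked with fragments of 170 bp for WT and 68 bp for K120R. Fold enrichment, the ratio of fragments over the summit to the local background, was therefore used only as a rank within each list, and across lists only presence was read. A WT peak was scored as kept if it shared 1 bp or more with a K120R peak and as lost if not, and a K120R peak without such a WT partner was scored as gained. Loss is thus a matter of calling, since weaker binding may lie below the threshold. There were no replicates, so no test compared the libraries, and all intervals are 95% intervals that cover counting error only.

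The sequences below were read from the plus strand of GRCh37 at the best match to the consensus p53 RE within 75 bp of a summit. They belong to the 5 peaks of largest fold enrichment among kept, lost and gained peaks. Capitals mark core positions 4 to 7 and 14 to 17 of the 20-bp match. The kept sites lie near PLXDC1 (chr17:37203119-37203138), in an intron of PHF14 (chr7:11122550-11122569), near IFNGR2 (chr21:34739689-34739708), in a UTR of CAMK4 (chr5:110830490-110830509) and near FAM3C (chr7:121151349-121151368). The lost sites lie in an intron of RBPJ (chr4:26408450-26408469), near SPATA31D1 (chr9:84636327-84636346) and in introns of CAMK2D (chr4:114482487-114482506), CCDC170 (chr6:151845347-151845366) and MED4 (chr13:48640880-48640899). The gained sites lie in an intron of HACL1 (chr3:15634379-15634398), near FBRSL1 (chr12:133060076-133060095), in introns of RNF14 (chr5:141355864-141355883) and EEFSEC (chr3:127896881-127896900), and near GUCY1A2 (chr11:107103424-107103443).
PLXDC1, kept: agaCATGcctgaaCATGccc
PHF14, kept: ctaCATGcccaggCATGcca
IFNGR2, kept: agaCATGttcagaCATGcct
CAMK4, kept: gaaCATGcccaaaGAAGcct
FAM3C, kept: aggCATGtctggaCATGtct
RBPJ, lost: gggCCTGcccagaCATGcct
SPATA31D1, lost: aggCTAGcccaggCATGttc
CAMK2D, lost: ggaCATGcctgggCATGcct
CCDC170, lost: aggCATGtctgggCAAGccc
MED4, lost: gggCTTGtctgggCATGccc
HACL1, gained: acaCATGtacgcaCATGtgt
FBRSL1, gained: gacCTAAcccggaCATAacc
RNF14, gained: acgCATGtgcgtgCATGcac
EEFSEC, gained: gtgCATGttggtaCATGtgc
GUCY1A2, gained: tgaCTACcttctaCTACcca
In the order printed, the kept sites had 2, 3, 1, 2 and 1 G/C bases next to the cores (positions 3, 8, 13 and 18), the lost sites 3 each, and the gained sites 0, 2, 3, 1 and 2. Mismatches to the consensus numbered 0, 3, 0, 1 and 0 at the kept sites and 1, 0, 0, 0 and 0 at the lost sites. The gained sites had 4 mismatches, or 6 near GUCY1A2.

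Most WT peaks had no K120R counterpart. A K120R peak overlapped 1092 of the 4326 WT peaks (25.2%, exact Clopper-Pearson 95% interval 24.0 to 26.6%), and 3234 WT peaks were lost. Of the 2023 K120R peaks, 1150 overlapped a WT peak, and 873 were gained (43.2%, 41.0 to 45.3%). When the WT list was limited to its 2023 peaks of largest fold enrichment, 39.4% of them were kept and 58.3% of K120R peaks were gained. At a minimum -log10 q of 10 in both lists these shares were 15.0 and 29.6%. Of the 3234 lost peaks, 37 had a K120R peak within 1000 bp, and their median distance to the nearest K120R peak was 419.9 kb. These distances do not show whether K120R signal below the calling threshold lay at the lost sites. Of the gained peaks, 31 of 873 lay within 1000 bp of a WT peak. Where peaks overlapped, the summits of a pair were a median of 34 bp apart.

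Kept peaks stood high in the WT list. The WT list was split by fold enrichment into 5 groups of equal size. From the bottom to the top group the share kept was 10.7, 11.8, 19.7, 28.4 and 55.6%, a difference of 44.9 percentage points between top and bottom (Newcombe 95% interval 40.9 to 48.7). All 10 leading WT peaks were kept, as were 89 of the leading 100 and 345 of the leading 500. In the K120R list, split likewise, the share gained was 54.3, 57.8, 48.3, 33.8 and 21.5% from bottom to top (top group 17.6 to 25.9%). None of the 10 leading K120R peaks was gained, against 9 of the leading 100. In untreated WT cells, 95 of the leading 100 WT sites already had a peak.

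**Figure D1:**
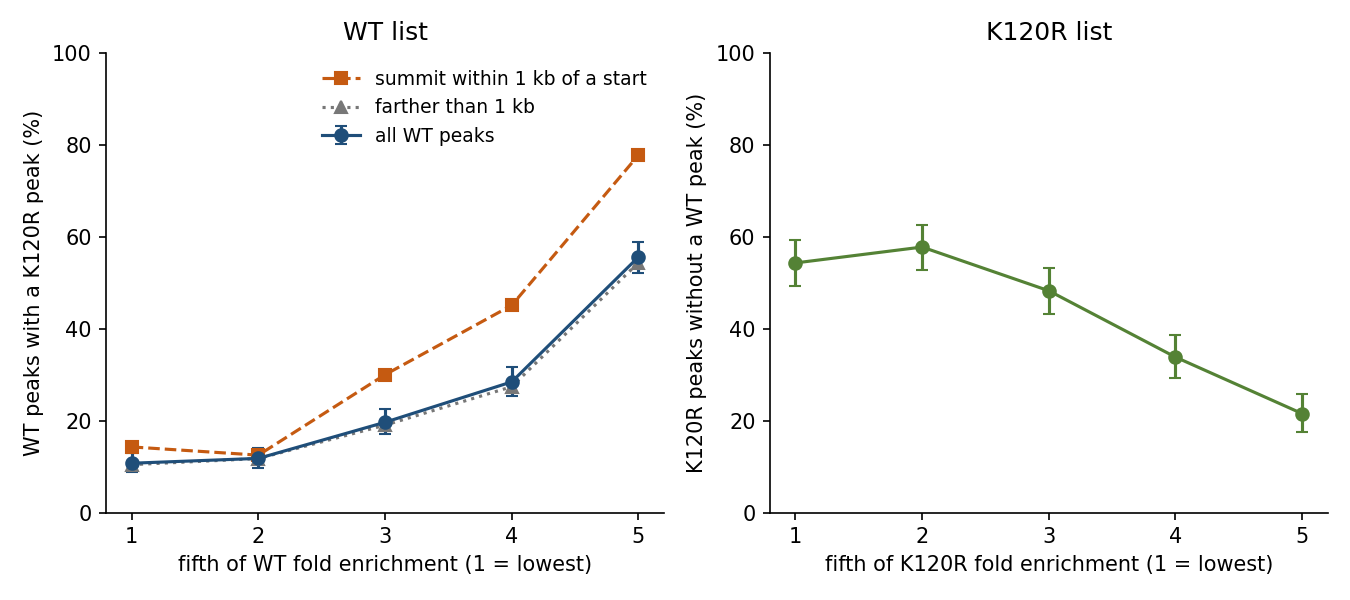
Share of WT peaks with a K120R peak (left) and of K120R peaks without a WT peak (right), in percent, by 5 equal groups of fold enrichment within each list. Circles are all peaks of a group with exact 95% intervals, squares and triangles are WT peaks within 1 kb of a protein-coding start or farther away; the share kept rises to 55.6% in the top WT group, and the share gained falls to 21.5% in the top K120R group.

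The WT peaks of largest fold enrichment that were kept lay near PLXDC1 (90.7), in PHF14 (77.0), upstream of IFNGR2 (76.0), in a UTR of CAMK4 (74.1) and 114946 bp upstream of FAM3C (74.1). CAMK4 encodes a calcium- and calmodulin-dependent kinase, and its site lies at chr5:110830109-110831019. All of these sites had a WT peak in untreated cells.

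All WT peaks above rank 25 were kept. The leading lost peaks lay in an intron of RBPJ (chr4:26408098-26408804, fold enrichment 60.1, rank 25), the DNA-binding effector of Notch signalling, and 32663 bp from the start of SPATA31D1 (chr9:84636092-84636667, 59.5, rank 26). Next came introns of CAMK2D (chr4:114482091-114482903, 52.2), another calcium-dependent kinase, CCDC170 (chr6:151844976-151845645, 51.2) and MED4 (chr13:48640539-48641132, 47.7), a Mediator subunit. Each of these sites had a WT peak in untreated cells too, with a fold enrichment of 6.76 to 16.6 in that list.

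The gained peaks of largest fold enrichment lay in an intron of HACL1 (22.9, rank 20 of the K120R list), 6023 bp upstream of FBRSL1 (21.1, rank 30) and in an intron of RNF14 (18.9, rank 48). They were followed by an intron of EEFSEC (chr3:127896657-127897112, 18.7, rank 50), which encodes the elongation factor for selenocysteine, and a site 214234 bp upstream of GUCY1A2 (chr11:107103056-107103605, 17.2, rank 68). None of them had a WT peak in untreated cells, as held for 870 of all 873 gained peaks. This largely follows from the definition, as gained sites lack a WT peak in Tet-treated cells. Untreated WT cells had 488 peaks, and 401 Tet-treated WT peaks overlapped one of them.

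By annotation, the share of WT peaks kept differed little away from promoters, while the share gained was lower between genes than in introns. Introns of protein-coding genes held 45.2% of WT peaks and 44.3% of K120R peaks, and 32.9 and 30.4% were intergenic. The share of WT peaks kept was 24.2% in introns (22.3 to 26.2%), 24.4% between genes (22.2 to 26.7%), 26.0% in other annotated genes, 30% in UTRs (n = 70) and 30.4% in coding sequence (n = 23). Gained peaks were 37.2% of intergenic K120R peaks (33.3 to 41.1%) and 45.8% of intronic ones (42.5 to 49.1%), and 57.4% of 47 in UTRs (42.2 to 71.7%). The median distance to the nearest protein-coding start was 28.0 kb for kept, 32.2 kb for lost and 28.3 kb for gained peaks.

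Peaks at promoters were kept more often. Of 256 WT peaks with a summit within 1 kb of the start of a protein-coding transcript, 88 were kept (34.4%, 28.6 to 40.5%), against 1004 of 4070 farther away (24.7%, 23.4 to 26.0%). The difference was 9.71 percentage points (Newcombe 95% interval 4.00 to 15.9). The median WT fold enrichment was 7.33 at starts and 7.64 elsewhere, and its part in the difference was not tested. Within the top group of the WT list, 35 of 45 peaks at starts were kept (77.8%), compared with 446 of 820 others (54.4%). In the bottom group the shares were 14.3 and 10.4%. Beyond 1 kb the share kept was flat, at 25.1% from 1 to 5 kb, 25.5% to 50 kb and 24.4% to 500 kb (22.2 to 26.7%), and it was 19.5% of the 257 WT peaks farther away (14.8 to 24.8%). A WT peak of untreated cells lay at 16.8% of the WT sites at starts and at 8.80% of the others. With such sites left out the difference was 5.22 points, with an interval of -0.393 to 11.6. It was thus not detectable among sites without a called peak in untreated WT cells. With a window of 5 kb around a start it was 3.59 points, and with lists of equal size it was 20.0 points (10.6 to 28.9).

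**Figure D2:**
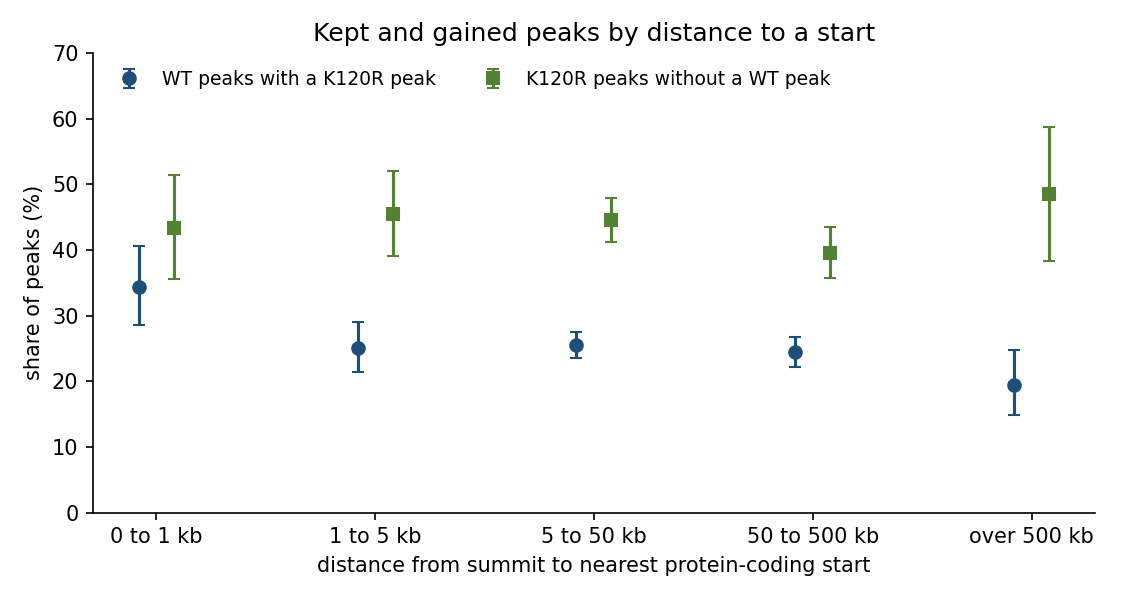
Share of WT peaks with a K120R peak (circles) and of K120R peaks without a WT peak (squares), in percent with exact 95% intervals, by distance from the summit to the nearest protein-coding start. The share kept is 34.4% within 1 kb, 24.4 to 25.5% from 1 to 500 kb and 19.5% beyond, while the share gained lies between 39.6 and 48.5% at all distances.

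The strongest kept promoter peaks were those of BBC3 (60.2), CDKN1A (49.7), RPS27L (48.1) and DDB2 (45.8), and the strongest lost ones those of BAX (27.5), PLK3 (21.5), CHD9 and CHD9NB, which share it (20.1) and MRPL27 (19.5). Gained promoter peaks numbered 69, led by GSDMD, the pore-forming protein of pyroptosis (K120R fold enrichment 13.5), TMEM204 (13.4), TNFAIP8 (12.5) and SNCG (12.1). RPS27L, CHD9, CHD9NB, MRPL27, GSDMD, TMEM204 and SNCG were picked after their values were seen.

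Genes were scored by whether a summit lay in the gene or within 5 kb upstream. A WT peak was assigned to 2251 protein-coding genes and a K120R peak to 1108. Of the WT genes, 752 also had a K120R peak (33.4%, 31.5 to 35.4%) and 1499 lost it. This share depended on the lists entered, with 19.5% at a minimum -log10 q of 10 in both lists and 47.9% with lists of equal size. Of the K120R genes, 356 had no WT peak (32.1%, 29.4 to 35.0%). In 647 of the 752 kept genes a K120R peak overlapped a WT peak. In the other 105 both forms had a peak in the gene, but at separate places, a median of 33.4 kb apart. Of the 873 gained peaks, 349 lay in genes without a WT peak, 179 in genes with a WT peak elsewhere and 345 outside genes.

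Genes with several WT peaks kept a peak more often than genes with 1, at about the share that counting each peak separately gives. A K120R peak was found in 197 of 368 genes with at least 2 WT peaks (53.5%, 48.3 to 58.7%) and in 555 of 1883 genes with 1 (29.5%, 27.4 to 31.6%), a difference of 24.1 percentage points (18.5 to 29.5). The peaks themselves were kept at like rates, 27.5% of the 836 peaks in genes with several (24.5 to 30.7%) and 25.2% of those in genes with 1 (23.2 to 27.2%). If each WT peak counted separately, with the 29.5% of genes with 1 peak, 53.9% of the 368 genes would keep a peak. This value was computed after the shares were seen. Genes with several peaks were also longer, with a median length of 193.5 kb against 80.6 kb. The parts of peak number and gene length in the difference were not tested. Counted by overlapping peaks instead of any K120R peak in the gene, 31 of the 368 genes kept all of their WT peaks, 142 kept some and 195 kept none.

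BCAS3 had the most WT peaks, with 6 in its introns (fold enrichment up to 16.9), and no K120R peak. METTL15 had 5 WT peaks, of which the pair with the largest fold enrichment, 32.1 and 20.1, was kept, and the K120R peak at the latter reached rank 13. MAGI2, a scaffold protein of cell junctions, and TMEM117 each had 5 WT peaks and kept 2. The 5 WT peaks of FRG1, all with a fold enrichment of at most 6.01, lay in a region close to the end of chromosome 4, and 1 was kept. CDKN1A, a much shorter gene of 10.9 kb, kept all 3 of its WT peaks.

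Among genes with the most K120R peaks, CCNG2, a cyclin of the G family, had 5 over its 3 WT peaks, all within 11.5 kb of an intron of the annotated gene. CD36, a fatty acid receptor, had 5 K120R peaks, and all 3 of its WT peaks were kept. MAD1L1, a spindle checkpoint protein, and an overlapping gene without a symbol shared 5 K120R peaks, of which 2 were gained. MLYCD, which encodes malonyl-CoA decarboxylase, had 5 K120R peaks and no WT peak. A group of 4 of these lay within 0.98 kb at chr16:83983815-83984794, a stretch shared with OSGIN1, with fold enrichments of 4.68 to 6.18.

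Some broad WT regions were split in the K120R list, a reading made after the values were seen. On chromosome X, between TAB3 and GK, 21 K120R peaks lay within 17.5 kb (chrX:30807114-30824616), and the same stretch held only 2 WT peaks, of 11.4 and 6.54 kb, the longer with a fold enrichment of 35.3 and rank 138. Of the 25 runs of at least 3 WT peaks no more than 10 kb apart, 13 lay within 1 Mb of an assembly gap of at least 1 Mb. Among all 4326 WT peaks, 163 lay as close to such a gap. In 19 of the runs no peak reached a fold enrichment of 10, which most WT peaks did not reach either (median 7.64, upper quartile 12.4). The run at CDKN1A was among the stronger ones, with a fold enrichment up to 49.7 and 3 of its 4 WT peaks kept. The part of the different fragment lengths, 170 and 68 bp, in how broad signal was divided was not tested. Joining peaks up to 10 kb apart left 26.0% of WT regions kept and 42.4% of K120R regions gained.

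Sets of known p53 target genes were examined in the same way. Of 127 listed genes, 72 had a WT peak (56.7%), 7 of them non-coding RNA genes, beside 11.2% of all 20163 annotated protein-coding genes. Of these 72 listed genes, 39 kept a peak (54.2%, 42.0 to 66.0%). Of the 65 protein-coding ones 34 were kept (52.3%, 39.5 to 64.9%), beside 33.4% of all protein-coding genes with a WT peak. With peaks of untreated cells left out, 40.4% of 47 listed genes kept a peak (26.4 to 55.7%). That interval holds the 30.2% of all protein-coding genes in the same setting. The listed protein-coding genes also had stronger WT peaks, with a median of the largest fold enrichment per gene of 13.4 against 8.12 over all protein-coding genes. Among protein-coding genes at or above a WT fold enrichment of 15.3, the bound of the top group of genes, 22 of 28 listed genes were kept (78.6%, 59.0 to 91.7%), and 289 of all 450 (64.2%, 59.6 to 68.7%). These intervals overlapped. The lists are small, and the 95% interval of the share kept in each of the 10 lists holds the 33.4% of all protein-coding genes, so none was shown to differ from it. A minimum -log10 q of 10 left 2908 of 4326 WT peaks but 631 of 2023 K120R peaks, so it was the stricter for K120R. With it, 29 of the 39 kept genes remained kept, and CCNG1, MDM4, PMAIP1, AEN, PIDD1, DDB2, PCNA, PANK1, LINC-PINT and TP53TG1 did not.

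**Figure D3:**
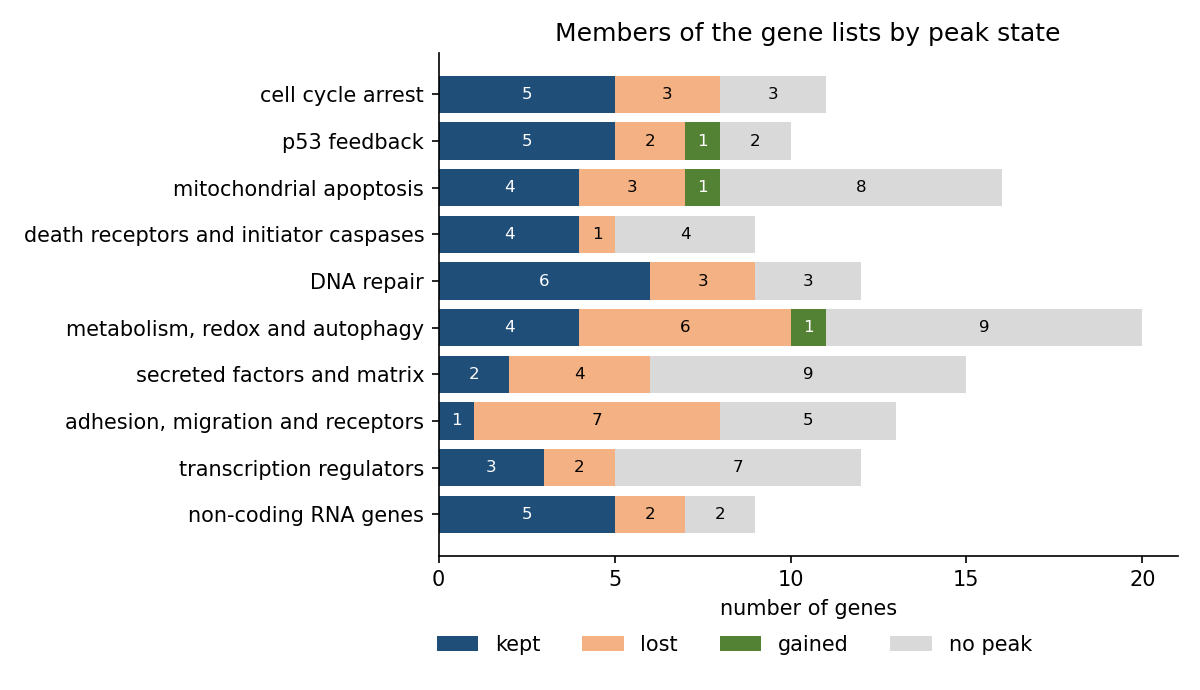
Number of genes in each list of p53 targets that kept, lost or gained a peak, or had none in either list. The share of WT genes kept ran from 12.5% of 8 (adhesion, 0.316 to 52.7%) to 80% of 5 (death receptors, 28.4 to 99.5%), and each list's interval holds the 33.4% of all protein-coding genes.

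Of the cell cycle arrest genes, 5 of the 8 with a WT peak kept it (62.5%, 24.5 to 91.5%). Kept members were led by PLK2, a polo-like kinase (WT fold enrichment 61.4, K120R rank 336), CDKN1A, the inhibitor p21 (49.7, rank 1), GADD45A (39.5, rank 46) and E2F7, a repressor of cell cycle genes (14.6, rank 269). PLK3 (21.5), BTG2 (11.2) and SFN, the 14-3-3 sigma protein (5.06), lost their peaks.

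In the p53 feedback list, 5 of 7 were kept (71.4%, 29.0 to 96.3%). ZMAT3, an RNA-binding protein, had a WT fold enrichment of 53.5 and K120R rank 200, and MDM2, the main ubiquitin ligase of p53, had 36.8 and rank 7. MDM4, its partner, had 23.2 and rank 697. TNFAIP8 kept its intronic peak (15.9) and had a K120R peak 796 bp from its start (rank 199) where WT had none. TP53INP1 (11.8) and PHLDA3 (4.69), an inhibitor of AKT, lost theirs. ZNF385A gained a peak of low rank (fold enrichment 5.62, rank 1514).

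Mitochondrial apoptosis genes kept 4 of 7 (57.1%, 18.4 to 90.1%). Both WT peaks of BBC3, which encodes PUMA, were kept (60.2 and 26.6, K120R ranks 22 and 581). So were both of BCL2L1, an inhibitor of apoptosis (23.4 and 9.21, K120R ranks 438 and 2012). AEN, a nuclease (25.4), and PMAIP1, or NOXA (9.97), kept peaks at K120R ranks 1564 and 1732 of 2023, also low in that list. Lost peaks were those of BAX (27.5), APAF1, the core of the apoptosome (10.5), and KLLN (3.60). BCL2L14 gained a peak 2627 bp upstream of its start (fold enrichment 12.3, rank 209).

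Among death receptors and initiator caspases, 4 of 5 were kept (80%, 28.4 to 99.5%). TNFRSF10B (33.1, K120R rank 272), FAS (23.3, rank 607) and PIDD1 (20.4, rank 986) kept peaks at the same site. TNFRSF10A had a WT peak near its start (8.53) and a K120R peak 26406 bp into the gene (rank 296), which did not overlap. TNFRSF10D, a decoy receptor (10.6), lost its peak.

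DNA repair genes kept 6 of 9 (66.7%, 29.9 to 92.5%). RRM2B, a ribonucleotide reductase subunit, kept its strongest WT peak (62.2, K120R rank 353) and lost 2 weaker ones. DDB2, which recognises UV damage (45.8, rank 1561), REV3L (36.3, rank 268), a translesion polymerase, and TRIAP1 (31.0, rank 128) were also kept. FANCC (12.7 and 4.69), POLH (9.53) and XPC (8.05) lost their peaks.

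Genes of metabolism, redox control and autophagy kept 4 of 10 (40%, 12.2 to 73.8%). SESN1 (16.6, K120R rank 126), PANK1 (11.1, rank 1673), TIGAR (8.54, rank 836) and TP53I3 (7.71, rank 322) were kept. SUSD6 (12.1), PRKAB1, a subunit of the kinase AMPK (8.40), SESN2, a sestrin (7.17), and ULK2, a kinase of autophagy (6.36), headed the 6 lost genes. LPIN1 gained a weak intronic peak (4.38, rank 1872).

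Secreted factors kept 2 of 6 (33.3%, 4.33 to 77.7%) and adhesion, migration and receptor genes 1 of 8 (12.5%, 0.316 to 52.7%). The cytokines LIF (25.8, K120R rank 29) and GDF15 (17.7, rank 169) were kept. KITLG, the ligand of KIT (32.2), EDN2, an endothelin (25.1), and CSF1 (4.95) were among the 4 that lost their peaks. EPHA2 (21.1, rank 111) was the receptor gene that kept its peak, while NOTCH1 (18.1), TLR3 (15.3), NTN1 (8.53) and DDR1 (8.29) were among the 7 lost.

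Transcription regulators kept 3 of 5 (60%, 14.7 to 94.7%), with ATF3 (53.1, K120R rank 33), PRDM1 (rank 486) and RUNX1 (14.1). At RUNX1 none of the 3 WT peaks overlapped its K120R peak (rank 361). TCF7L2 (13.4) and TP63 (5.74) lost their peaks. Of the non-coding RNA genes 5 of 7 were kept (71.4%, 29.0 to 96.3%), including MIR34AHG, the host of miR-34a (50.9, rank 83), PVT1 (38.5, rank 47), NEAT1 (36.3, rank 276) and LINC-PINT (23.3, rank 1068). MIR34B and MIR34C shared 1 WT peak (WT fold enrichment 43.0), which was lost.

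Among all WT peaks with an RE match, those at listed REs included, the share kept differed by base composition. A match to the consensus p53 RE with at most 3 mismatches lay within 75 bp of the summit in 82.1% of kept WT peaks (79.6 to 84.3%), 76.5% of lost ones and 32.3% of gained peaks (29.2 to 35.5%). Windows of the same length 3000 bp to either side held such a match in 3.49, 3.61 and 3.16% of cases. Among K120R peaks that overlapped a WT peak, 66.8% had a match at the summit (64.0 to 69.5%). Among WT peaks with a match, the share kept was 60.4% with 0 G/C bases at positions 3, 8, 13 and 18 (n = 475), 39.4% with 1 (n = 763), 19.7% with 2 (n = 1211), 7.91% with 3 (n = 771) and 5.30% with 4 (n = 151). WT fold enrichment did not follow this order, with medians of 8.61, 8.40, 8.92, 7.76 and 7.64.

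In crossings made after the values were seen, rank and composition each separated kept from lost peaks. In the top group of WT fold enrichment, 85.1% of 296 peaks with 0 or 1 G/C base were kept and 22.7% of 198 with 3 or 4. In the bottom group these shares were 19.4% of 144 and 3.12% of 192. Within classes of G/C number, the share kept at starts was higher for 2 and 3 G/C bases. With 2 G/C bases, 44% of 50 peaks at starts were kept (30.0 to 58.7%) and 18.7% of 1161 others (16.5 to 21.1%). With 3, the shares were 24% of 50 (13.1 to 38.2%) and 6.80% of 721 (5.07 to 8.89%). With 0 and 1 the intervals at starts and elsewhere overlapped (83.3 and 59.5%, 53.1 and 38.9%), and with 4 none of 6 peaks at starts was kept, against 5.52% elsewhere. RE matches at starts had 3 or 4 G/C bases in 35.9% of cases, and those elsewhere in 26.9%.

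**Figure D4:**
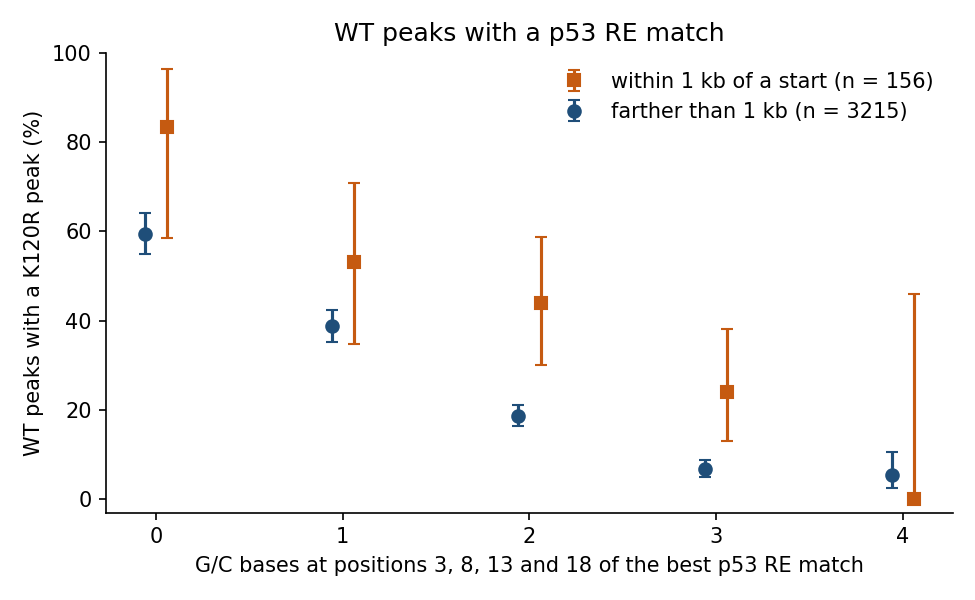
Share of WT peaks with a K120R peak, in percent with exact 95% intervals, by the number of G/C bases at positions 3, 8, 13 and 18 of the best p53 RE match (at most 3 mismatches), for summits within 1 kb of a protein-coding start (squares) and farther away (circles). Both series fall as the number rises, from 83.3 to 0% at starts and from 59.5 to 5.52% elsewhere.

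In a comparison chosen after the values were seen, gained peaks lay close to chromosome ends more often than kept or lost peaks. Of the 873 gained peaks, 169 were within 5 Mb of an end (19.4%, 16.8 to 22.1%), against 101 kept (9.25%, 7.60 to 11.1%) and 256 lost WT peaks (7.92%, 7.01 to 8.90%), while these ends made up 7.75% of the assembly. Within 2 Mb the shares were 11.6, 4.67 and 3.96%, beside 3.10% of the assembly. By chromosome, the share of K120R peaks that was gained ranged from 20% on chromosome 13 (n = 35) to 67.9% on chromosome 21 (n = 28). It was 64.3% on chromosome 20 (50.4 to 76.6%). Of the gained peaks within 5 Mb of an end, 27.2% had an RE match with at most 3 mismatches, beside 32.3% of all gained peaks. The part of sequence content in this placement was not tested.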

How the data were processed

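The authors placed 75-bp reads on GRCh37 by BWA-MEM, and for each of the 4 ChIP-seq libraries they called peaks over the matching input with MACS 2.1.1.20160309 at a q-value cutoff of 0.05. Libraries were not pooled. Among the deposited columns, pileup is a signal that counts scaled fragments at the summit, and fold enrichment is a ratio of that pileup to background estimated near the site. The deposited p-values and q-values of the authors are on the -log10 scale, and only the q-value was used, as a threshold. Narrow-peak and summit lists were not used. ChIP depth ran from 33059650 to 34857204 tags. Samples were grouped by their labels.

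Overlaps, ranks and gene assignments were computed with pandas 2.3.3, pysam 0.24.0, scipy 1.17.1 and numpy 2.4.6 under Python 3.11.15, with genes from GENCODE release 44 on GRCh37, and plotted with matplotlib 3.10.9. Summits were assigned to the nearest start of a protein-coding transcript, and to genes holding them or lying within 5 kb downstream. RE matches were the 20-bp windows with the fewest mismatches in the 151 bp around a summit. The steps were tested on simulated peaks with known overlaps. Intervals of shares are exact (Clopper-Pearson), and those of differences are Newcombe's. Named genes were, for each of 10 lists, up to 4 kept and 4 lost members with the largest WT fold enrichment and every gained member; the 5 leading kept, lost and gained peaks; the 5 genes with most peaks in either list; and the 4 largest rises and falls in percentile, which are not reported because they compare ranks across lists that differ in length and fragment size. A listed gene that this rule would name is not reported here. The rule, the members and the lists were chosen with earlier results of these data known. The comparisons by G/C number, chromosome end and run were added after the data were seen. Alternatives were stricter thresholds, other overlap and gene rules, lists of equal size, and leaving out sites of untreated cells or sites near assembly gaps.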

Additional observations from a re-analysis of the deposited data

How the results depend on the processing

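Of 52 recomputed values, 37 stayed within the 95% interval of the reported value, 15 moved beyond it and 0 changed sign. A minimum -log10 q of 10 in both lists left 2908 of 4326 WT peaks and 631 of 2023 K120R peaks, an uneven loss that limits what this setting shows. With it, 15.0% of WT peaks were kept, 29.6% of K120R peaks were gained, 19.5% of genes kept a peak, and the difference between the top and bottom groups of WT fold enrichment was 35.3 percentage points. Without peaks of untreated cells these values were 21.4%, 56.0%, 30.2% and 31.6 points, and 40.4% of listed genes kept a peak (26.4 to 55.7%). The rise to 56.0% follows from the setting itself, as K120R peaks at removed WT sites then count as gained. With lists of equal size, 39.4% of WT peaks were kept, 58.3% of K120R peaks gained and 47.9% of genes kept, and the difference between starts and other sites was 20.0 points. Requiring summits within 200 bp gave 45.4% gained, and a window of 5 kb around starts gave a difference of 3.59 points. The cause of the other moves was not tested. Settings that left out peaks near assembly gaps or joined peaks up to 10 kb apart were chosen after seeing the data, and moved no value beyond its interval. The share of listed genes kept moved only when peaks of untreated cells were left out. The difference between genes with several peaks and 1 peak stayed within its interval throughout. Counting each WT peak separately gives a share of 53.9% for genes with several, near the 53.5% found. The part of peak number was not tested. No paired analysis was possible because each condition had 1 library. With 1 library a side, differences in p53 level, pull-down, depth and the fragment length used for calling cannot be told apart from the change of residue.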

Other observations

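Peaks already present in untreated WT cells were kept far more often than those seen only after Tet. Of 401 WT peaks that overlapped a peak of untreated WT cells, 253 were kept (63.1%, exact 95% interval 58.2 to 67.8%), compared with 839 of the other 3925 (21.4%, 20.1 to 22.7%). They were stronger too, with a median WT fold enrichment of 25.7 against 7.11. Within the top of 5 equal groups by WT fold enrichment the shares were 67.7% of 341 (62.5 to 72.7%) and 47.7% of 524 (43.4 to 52.1%). Even within that group the median WT fold enrichment was 29.2 against 18.3. A K120R peak of untreated cells lay at 6 of the 1092 kept sites, and at 0 of the 3234 lost and 0 of the 873 gained sites.

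Mismatches to the consensus p53 RE told kept and lost WT peaks apart less than the G/C number did. The share kept was 29.9% of 244 peaks with 0 mismatches (24.2 to 36.1%), 36.7% of 607 with 1 (32.9 to 40.7%), 25% of 1396 with 2 (22.7 to 27.4%) and 22.3% of 1124 with 3 (19.9 to 24.9%). The median WT fold enrichment over the same classes was 12.7, 11.8, 8.54 and 6.88. By the number of CATG cores in the match, 30.1% of 495 peaks with 0, 24.6% of 1519 with 1 and 27.6% of 1357 with 2 were kept.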
